A study of Homo sapiens with 12 samples.

Results

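Expression of 10 genes of the bone morphogenetic protein (BMP) pathway was examined in HEYA8, a human ovarian cancer cell line. The genes were taken by name from a count table of 56269 genes. They are the ligands BMP2 and BMP4, the type I receptors BMPR1A, BMPR1B and ACVR1, the type II receptor BMPR2, the secreted antagonist GREM1 and the target genes ID1, ID2 and ID3. The 12 RNA-seq libraries fall into 4 groups of 3, all from untreated cells at steady state in growth medium with serum. The cells carried a control vector or a form of betaglycan, the TGF-β co-receptor encoded by TGFBR3. The forms are ∆GAG, which carries no glycosaminoglycan (GAG) chains, S534A, with serine 534 changed to alanine and named CS-BG for its mainly chondroitin sulfate chains, and S545A, with serine 545 changed and named HS-BG for its mainly heparan sulfate chains. The constructs were delivered in the lentiviral backbone pHIV-dTomato and infected cells were sorted by dTomato, so each group is a sorted population on top of whatever betaglycan HEYA8 makes itself. Full-length betaglycan is not among the groups analysed here. Nothing in the labels says whether the 3 libraries of a group came from separate cultures, so p-values measure the spread between libraries, which may be technical.

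BMP ligands bind a complex of type I and type II receptor kinases. The type I receptor then phosphorylates SMAD1, SMAD5 and SMAD9, which join SMAD4 in the nucleus and switch on target genes, the ID genes and the inhibitory SMADs among them. ID proteins lack a DNA-binding region and hold E proteins such as TCF3 and TCF12 away from DNA, and GREM1 binds BMP2 and BMP4 outside the cell. Betaglycan is best known as a TGF-β co-receptor but also binds BMPs, and ovarian cancer cells are known to make and answer BMP ligands.

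Total counts ran from 16410001 to 29504297 per library, and levels are given as CPM, counts scaled by TMM to a common library size. Of the lists of markers, PAX8 was at 193.2 to 294.9 CPM and the keratins KRT7, KRT8 and KRT18 at 451.0 CPM or more in all libraries. The epithelial markers MUC16 and CDH1 had no count in any of the 12. EPCAM was at 0.367 to 1.765 CPM, WT1 at 3.417 to 8.376 CPM and MSLN at 6.9 to 18.04 CPM. The mesenchymal genes were high, VIM at 2343 to 3132 CPM, CDH2 at 114.6 to 149.8 CPM and FN1 at 321.2 to 1412 CPM. Among markers of other cell types, the fibroblast genes DCN and LUM and the T cell gene CD3E had no count, but COL1A1, of the fibroblast list, was at 7.975 to 17.7 CPM, COL3A1 had up to 31 counts, and CDH5, an endothelial cadherin, was at 168.5 to 431.0 CPM with PECAM1 below 1 CPM. The gene of the constructs did not follow the labels. TGFBR3 was at 413 to 574.4 CPM in the 6 libraries labelled S534A and S545A. It was at 15.91 CPM in replicate 1 labelled control vector but at 258.9 and 259.2 CPM in replicates 2 and 3, and at 259.6 CPM in replicate 1 labelled ∆GAG but at 20.30 and 21.41 CPM in replicates 2 and 3. Reads of the construct and of the cell's own gene cannot be told apart in this table, and every direction below that involves the libraries labelled control vector or ∆GAG carries this limit. Replicates 2 and 3 of S545A, ∆GAG and control vector differed from each other by 1.40 to 1.99 on a chi-square per degree of freedom, where 1 is sampling noise, against 17.4 to 78.6 for all other pairs within a group.

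All 10 genes had enough counts to be tested. Per kilobase of exon, ID1 was the highest at a mean of 47.3 CPM per kilobase over the 12 libraries, followed by ID3 at 15.5, BMPR2 at 10.2, ACVR1 at 9.84, BMP2 at 4.28, GREM1 at 3.61 and BMPR1A at 2.87. ID2, BMPR1B and BMP4 lay far below, at 0.241, 0.216 and 0.202 CPM per kilobase. ID1 was above ID3 in 12 of 12 libraries, ACVR1 above BMP2 in 12 of 12 with no overlap of their ranges, and BMPR1A above ID2 in 12 of 12 with no overlap. The ranges of ID1 and ID3 overlapped, as did those of ID3 and BMPR2 (ID3 was higher in 11 of 12 libraries). BMPR2 and ACVR1 also overlapped (BMPR2 was higher in 8 of 12 libraries), as did BMP2 with GREM1 and GREM1 with BMPR1A, and the neighbours among the 3 lowest genes. So within the same libraries 2 of the 3 ID genes had the highest means of the 10 genes while the third was among the 3 lowest.

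**Figure D1:**
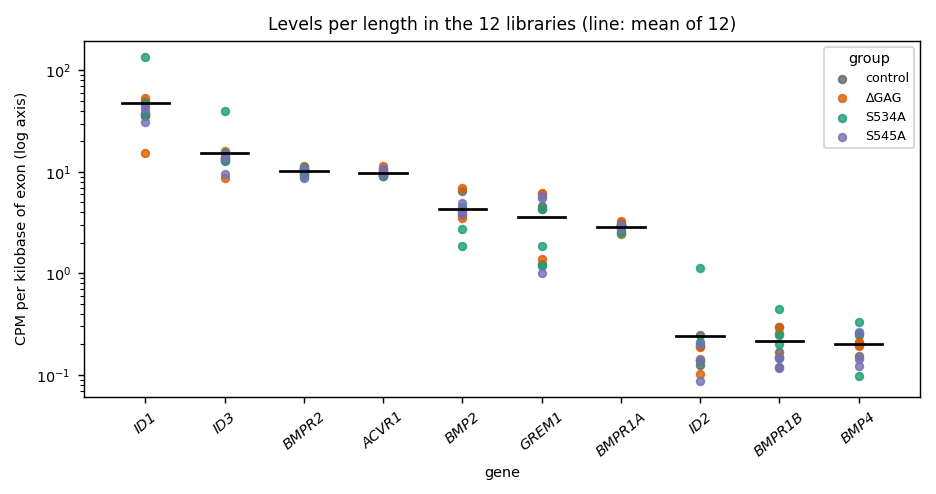
Level of each gene per kilobase of exon on a log axis, with a point for each of the 12 libraries colored by group and a line at their mean. ID1 and ID3 have the highest means, and ID2, BMPR1B and BMP4 form a separate low set.

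ID1 (chromosome 20, 31605283 to 31606515, plus strand, GRCh38) is a compact gene with 1233 exon bases. The sequence before its start is shown because ID1 had the largest range in CPM of the 10 genes and lies next to a stretch outside every exon of the count table. It is taken from the RefSeq promoter table on GRCh38.p14, at chr20:31605039-31605282 on the plus strand, and is 66.4% G and C. Capitals mark a CCAAT box, which lies on the opposite strand here and so reads in reverse complement, and the TATA-like stretch near the start.

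ID1 promoter: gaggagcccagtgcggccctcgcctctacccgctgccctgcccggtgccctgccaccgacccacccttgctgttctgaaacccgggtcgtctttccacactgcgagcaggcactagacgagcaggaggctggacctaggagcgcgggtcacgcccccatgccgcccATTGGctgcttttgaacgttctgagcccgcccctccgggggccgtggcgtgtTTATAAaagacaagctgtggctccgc

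Both strands of the 250 bases before each start were searched for the BMP-type SMAD motif GGCGCC, the short SMAD motif GTCTG and the E-box CACGTG. After the sequences had been read, the search was extended to the CCAAT box and to the motif TATAA. Over 35116 RefSeq promoters of the same length, 16.4% held GGCGCC, 38.0% GTCTG, 6.34% CACGTG, 32.0% CCAAT and 18.9% TATAA. The ID1 window held none of the first 3, a single CCAAT box, and TATAA on both strands in overlapping letters. The ID2 window held 3 CCAAT and none of the other 4 motifs, and the ID3 window held 1 GTCTG and 1 TATAA. Of these 250 bases, 229 in ID2 and all 250 in ID3 lie in exons of the count table. Elsewhere among the 10 genes, GGCGCC stood 2 times before a start of GREM1 and 1 time each before a start of BMP4, ACVR1 and BMPR2. That GREM1 window also lies in exons over all 250 bases, whereas those of BMP4, ACVR1 and BMPR2 held 0 exon bases. GTCTG also stood before a start of BMP4, BMPR1B, ACVR1, BMPR2 and GREM1, and CACGTG before a start of BMP4. Entries were found for 9 of the 10 genes. BMP4, BMPR1B and ACVR1 had 3 starts each and GREM1 had 2, so the shares per promoter above are not shares per gene. A match describes letters in a short window, not a bound site.

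Among the ligands, BMP2, a secreted growth factor of the BMP family, was the only well expressed member. BMP2 was at 23.59, 15.65 and 14.96 CPM in control vector replicates 1, 2 and 3, at 24.85, 12.77 and 13.68 CPM in ∆GAG, at 16.25, 6.741 and 9.769 CPM in S534A and at 17.60, 15.29 and 13.94 CPM in S545A. Replicate 1 was the highest of its group in all 4 groups, and S534A replicate 2 was the lowest of the 12. The S534A mean of 10.9 ± 4.86 CPM (SD, n = 3) compared with 18.1 ± 4.80 CPM in control vector, which is a log2 fold change of -0.73 (SE 0.328, unadjusted p 0.0479, adjusted p 0.871 by edgeR's quasi-likelihood test). The 2 groups overlapped, and without S534A replicate 2 it was -0.46 (unadjusted edgeR p 0.183). Leaving out S534A replicate 3 gave an unadjusted p of 0.106, and leaving out control vector replicate 1 gave 0.198. Without S534A replicate 1 it grew to -1.15 (unadjusted edgeR p 0.0044). With a block for replicate number, fitted as an alternative, it was -0.77 (unadjusted edgeR p 0.0015). The adjusted p was at least 0.467 under every alternative.

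BMP4, a close relative of BMP2, was barely detected, with 5 to 29 counts per library. It was at 0.761, 0.613 and 0.470 CPM in control vector, at 0.590, 0.650 and 0.632 CPM in ∆GAG, at 1.03, 0.801 and 0.303 CPM in S534A and at 0.814, 0.441 and 0.376 CPM in S545A. All 4 groups overlapped, and the widest bounds of the 95% intervals of its 6 differences were -1.33 and 1.13 on the log2 scale. These bounds hold the spread between libraries as well as the low counts, and differences in either direction may have gone unseen.

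**Figure D2:**
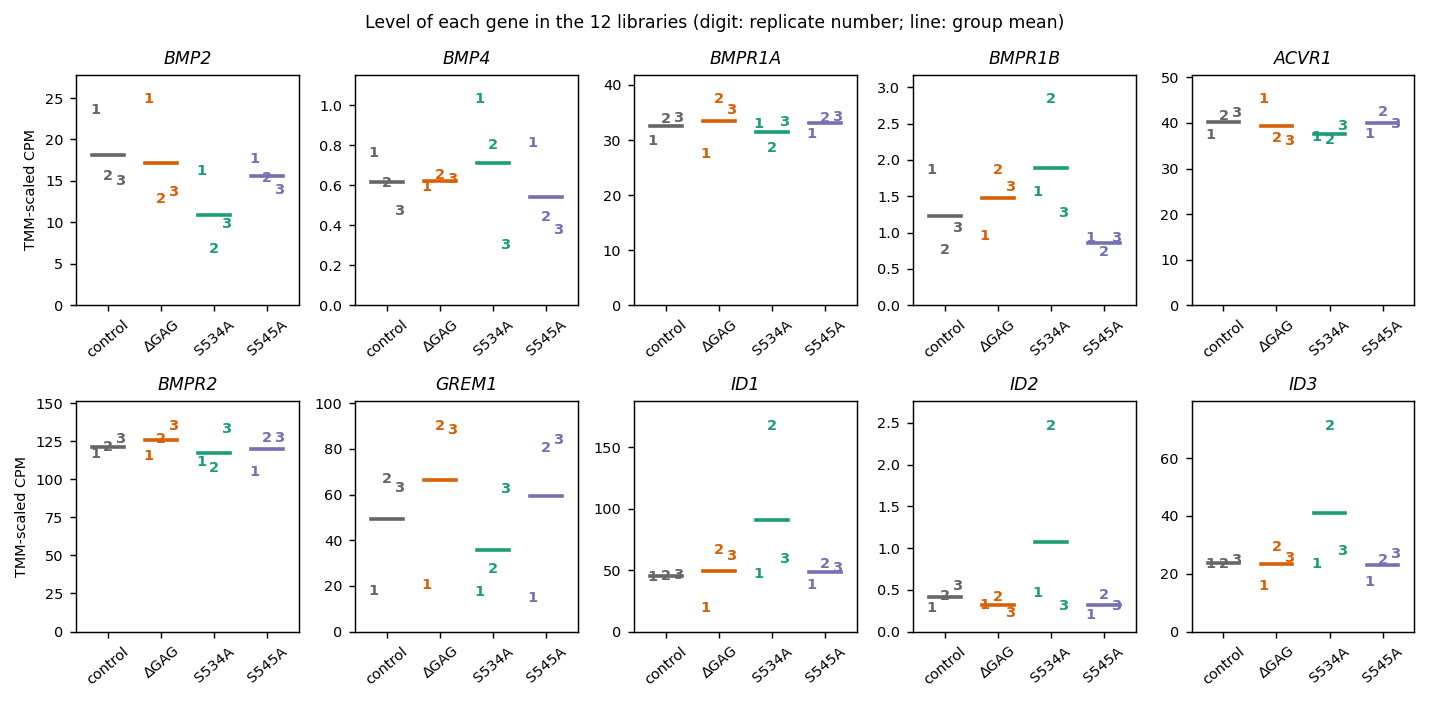
TMM-scaled CPM of each of the 10 genes in the 12 libraries, with digits marking the replicate number and lines the mean of each group of 3. S534A replicate 2 stands above the rest for ID1, ID2, ID3 and BMPR1B, and replicate 1 is the lowest GREM1 library in each group.

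The main receptors hardly varied. BMPR1A, a broadly expressed type I receptor, was at 29.85, 33.79 and 34.02 CPM in control vector, at 27.48, 37.40 and 35.36 CPM in ∆GAG, at 32.92, 28.46 and 33.25 CPM in S534A and at 31.05, 34.01 and 34.17 CPM in S545A. ACVR1, a type I receptor that also binds activins, ranged from 36.1 to 45.2 CPM over the 12 libraries. BMPR2, the type II receptor dedicated to BMPs, ranged from 104.8 to 135.2 CPM, and the groups overlapped in every comparison of the 3 genes. Their 18 differences lay between -0.10 and 0.09 on the log2 scale, and the widest bounds of the 95% intervals were -0.35 and 0.33. The smallest unadjusted p among them was 0.328 by the edgeR test.

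BMPR1B, the type I receptor of narrower expression, was low and more variable, with 15 to 85 counts per library. It was at 1.87, 0.754 and 1.06 CPM in control vector, at 0.952, 1.86 and 1.63 CPM in ∆GAG, at 1.56, 2.84 and 1.27 CPM in S534A and at 0.930, 0.735 and 0.923 CPM in S545A. All 3 S545A libraries lay below all 3 of S534A and all 3 of ∆GAG, by a small margin in the second case. Against S534A the log2 fold change came to -1.15 (SE 0.389, unadjusted p 0.0122, adjusted p 0.702 by the edgeR test), with a p of 0.1 by a two-sided exact permutation test, the smallest that 3 against 3 allows. Without S534A replicate 2 it was -0.72 with an unadjusted edgeR p of 0.0915. Against ∆GAG it was -0.76 (SE 0.40) with an unadjusted p of 0.0806. Leaving out ∆GAG replicate 1, the lowest of its group, gave -0.99 with an unadjusted edgeR p of 0.0355. Leaving out any other library of S545A or ∆GAG gave an unadjusted edgeR p of 0.115 to 0.239. The highest was without ∆GAG replicate 2, where the log2 fold change was -0.56.

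GREM1, the antagonist, varied more between replicates than between groups. GREM1 was at 17.92, 66.69 and 62.72 CPM in control vector replicates 1, 2 and 3, at 20.32, 90.26 and 88.11 CPM in ∆GAG, at 17.46, 27.23 and 62.56 CPM in S534A and at 14.65, 80.31 and 83.75 CPM in S545A. Replicate 1 was the lowest of its group all 4 times, with the mean of replicates 2 and 3 being 2.57 to 5.60 times higher, and S534A replicate 2 was near the replicate 1 level. The 4 groups overlapped, and the 95% intervals of the 6 differences ran from -2.54 to 2.38 on the log2 scale. The same order over replicates was seen for ID1 and ID3, though in control vector those differences were slight, and replicate 1 was lowest in all 4 groups in 3.92% of the 16069 genes tested. BMP2 went the other way, as did 3.91% of the genes tested. The labels attach no batch or day to the replicate numbers. A gene on the opposite strand, RP11-758N13.1, shares 188 bases with GREM1 and had at most 15 counts in a library.

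The ID target genes separated a single library from the other 11. ID1 was at 44.25, 45.06 and 45.65 CPM in control vector, at 19.09, 66.57 and 61.33 CPM in ∆GAG, at 46.68, 167.7 and 58.86 CPM in S534A and at 38.22, 54.83 and 51.80 CPM in S545A. S534A replicate 2 had 2.52 times the next highest library and ∆GAG replicate 1 was at 0.500 of the next lowest, while the 3 control vector libraries were nearly level. The S534A mean was 91.1 ± 66.6 CPM (SD, n = 3) against 45.0 ± 0.706 CPM in control vector. The groups did not overlap, by a small margin of 46.68 CPM in S534A replicate 1 against 45.65 CPM in control vector replicate 3. On the log2 scale the difference between the groups was 1.02 (SE 0.486, unadjusted p 0.0590, adjusted p 0.871 by the edgeR test). The exact permutation test gave 0.1, which 3 against 3 without overlap always gives, so it adds nothing to the lack of overlap. Without S534A replicate 2 it was 0.23 with an unadjusted edgeR p of 0.575. Without S534A replicate 1 or 3 the unadjusted p values were 0.0199 and 0.0283.

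ID3 followed the same order at a lower level. ID3 was at 23.25, 23.43 and 24.86 CPM in control vector, at 15.74, 29.13 and 25.47 CPM in ∆GAG, at 23.39, 71.31 and 27.91 CPM in S534A and at 17.29, 24.84 and 26.72 CPM in S545A. Again S534A replicate 2 was the highest library and ∆GAG replicate 1 the lowest, and the groups overlapped. S545A was lower than S534A by a log2 fold change of -0.84 (SE 0.370), with an unadjusted p of 0.0443 and an adjusted p of 0.702 by the edgeR test. Without S534A replicate 2 it was -0.15 with an unadjusted edgeR p of 0.525, and without S545A replicate 1 it was -0.66 with a p of 0.133. Without S545A replicate 2 the p was 0.0594.

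ID2 was close to the detection limit in 11 of 12 libraries, with 5 to 14 counts, and had 74 counts in S534A replicate 2. It was at 0.277, 0.424 and 0.548 CPM in control vector, at 0.317, 0.418 and 0.226 CPM in ∆GAG, at 0.462, 2.47 and 0.303 CPM in S534A and at 0.194, 0.441 and 0.308 CPM in S545A. The log2 fold changes of S534A were 1.82 (SE 0.694, unadjusted p 0.0225) over ∆GAG and 1.46 (SE 0.653, unadjusted p 0.0457) over control vector, and S545A minus S534A was -1.87 (SE 0.683, unadjusted p 0.0179), with adjusted p of 0.702 or more by the edgeR test. The groups overlapped in each. Without S534A replicate 2 these became 0.31, -0.05 and -0.37, so this library decided their size and, against control vector, their sign. The unadjusted edgeR p was also above 0.05 in S534A minus ∆GAG without ∆GAG replicate 1 (0.0527) or 3 (0.0701), in S534A minus control vector without control vector replicate 1 (0.137), 2 (0.0826) or 3 (0.0539), and in S545A minus S534A without S545A replicate 1 (0.0635). ID2-AS1, on the opposite strand, overlaps 38 bases of ID2 and had at most 3 counts.

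**Figure D3:**
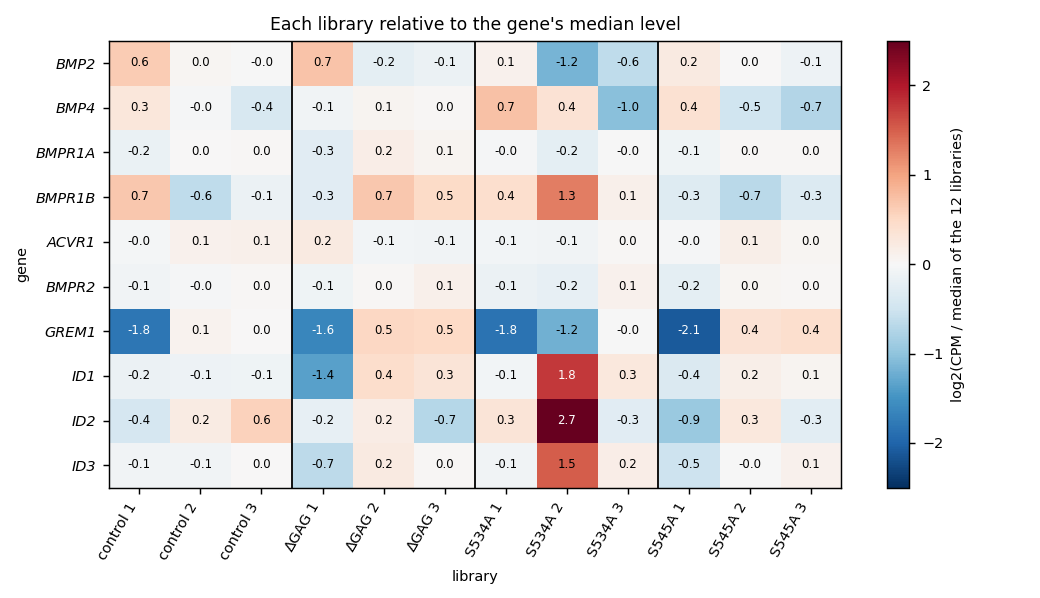
Log2 ratio of each library's CPM to the gene's median over the 12 libraries, with genes as rows and libraries as columns in their 4 groups. The S534A replicate 2 column is high for the ID genes and BMPR1B and low for BMP2 and GREM1, and the GREM1 row is also low in each replicate 1.

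Across the 12 libraries ID1 and ID3 varied together (Pearson's r of log2 CPM 0.950, and 0.907 over the 11 libraries without S534A replicate 2). For ID1 and ID2 r was 0.719 and 0.124, and for ID2 and ID3 0.862 and 0.354, so the likeness of ID2 rested on that library. For both ID1 and ID3, ∆GAG replicate 1 was the lowest of the remaining 11, and r without it was not computed. The genes most like ID1, among those with a mean of at least 1 CPM, were MYL6 (r = 0.988), C4orf3 (0.978) and ADI1 (0.975). For ID2 they were GABARAPL2 (0.923), ULK3 (0.922) and TAF13 (0.920), and for ID3 they were DPP3 (0.973), GNG11 (0.965) and CNTNAP1 (0.964). All 9 were highest in S534A replicate 2, MYL6 for instance at 386.9 CPM against 203.2 to 289.4 CPM. Without that library none of the 9 stayed among the 3 most alike. These correlations describe points that share libraries and depth.

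S534A replicate 2 was compared with the other 11 libraries after its values had been seen. It was the highest of the 12 for 4 of the 10 genes, ID1, ID2, ID3 and BMPR1B, at 3.59, 7.78, 2.87 and 2.68 times the median of the others, and the lowest for BMP2. Over the 16069 genes tested, it was the highest library for 26.1%, the lowest for 25.4%, and the highest with at least 2 times the median for 3.18%. Of the 29 other pathway genes tested it was the highest library for 9, and 4 of the 9 were at least 2 times the median of the others. It was the lowest for 4 of the 29, RGMB, CHRDL1, HEY1 and TCF12. The inhibitory SMADs were also highest there, SMAD7 at 21.0 CPM against 5.22 to 7.94 CPM and SMAD6 at 2.30 CPM against 0.377 to 1.00 CPM. BAMBI, a pseudoreceptor, was at 1.27 CPM against 0.137 to 0.814 CPM, and SMAD9 was at 24.6 CPM against 10.2 to 17.5 CPM. Among other target genes, HEY1 was at 5.94 CPM, the lowest of the 12, and MSX1, MSX2 and ATOH8 were inside the range of the others. Genes of endoplasmic reticulum (ER) stress had their lowest mean of the 12 in this library, with HSPA5, an ER chaperone, at 287.1 CPM against 1228 to 11860 CPM. ∆GAG replicate 1, also singled out after its values were seen, had the highest HSPA5, 11860 CPM, and was the lowest library for ID1, ID3 and BMPR1A and the highest for BMP2 and ACVR1. Over all genes tested it was the lowest for 2570 and the highest for 2612 of 16069. The part of ER stress or of BMP signaling in these values was not tested.

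**Figure D4:**
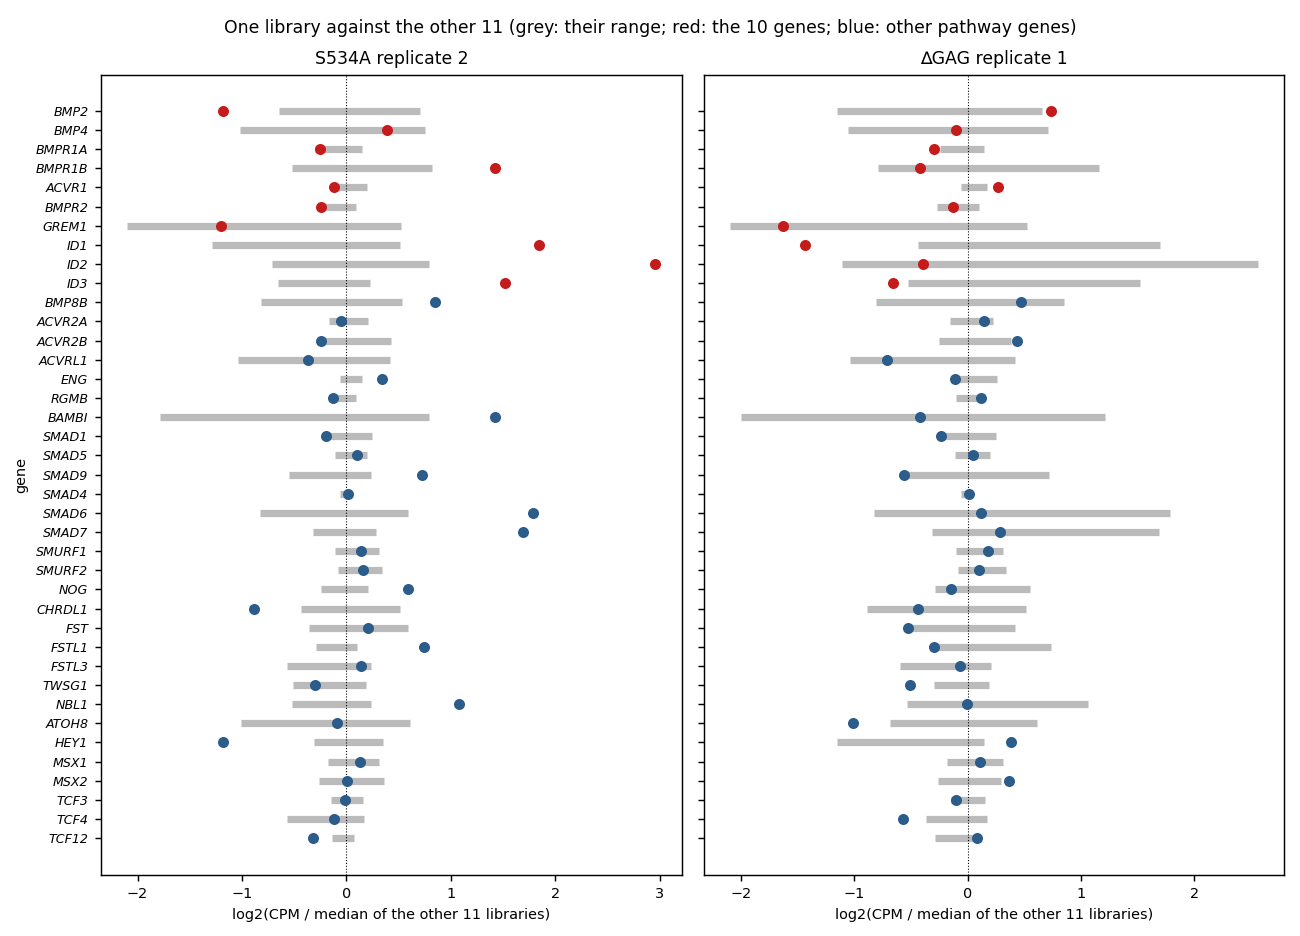
Log2 ratio of S534A replicate 2 (left) and ∆GAG replicate 1 (right) to the median of the other 11 libraries for the 10 genes (red) and 29 other pathway genes (blue), with grey bars for the range of the others. In S534A replicate 2 the ID genes, SMAD6, SMAD7, BAMBI and BMPR1B lie beyond the bars on the right, and in ∆GAG replicate 1 ID1 lies beyond the bar on the left.

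In the tests across the whole table, none of the 16069 genes passed an adjusted p of 0.05 in any of the 6 comparisons by edgeR (0% called), and 140 to 768 had an unadjusted p under 0.05. DESeq2 called 5 genes in S534A minus ∆GAG, 2 in S534A minus control vector, 1 in S545A minus S534A and 0 in the others. The 10 genes are therefore counted at an unadjusted p under 0.05, beside the share of all genes tested. In ∆GAG minus control vector 0 of the 10 passed (0.871% of all genes) and 0 had groups that did not overlap (4.87%). In S534A minus ∆GAG ID2 passed, higher (2.99%), and 0 did not overlap (5.66%). In S545A minus ∆GAG none passed (1.1%) and BMPR1B did not overlap (5.05%). In S534A minus control vector ID2 was higher and BMP2 lower (3.45%), and ID1 did not overlap (7.65%). In S545A minus control vector 0 passed (1.05%) and 0 did not overlap (8.82%). In S545A minus S534A BMPR1B, ID2 and ID3 were lower (4.78%) and BMPR1B did not overlap (10.1%). The medians of the 10 log2 fold changes ran from -0.21 in S545A minus S534A to 0.11 in S534A minus control vector, where those of all genes were -0.00024 and 0.0078. Comparisons that share a group share its libraries, so the 3 with S534A all contain replicate 2, and without it none of the 10 passed in any of those 3.

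**Figure D5:**
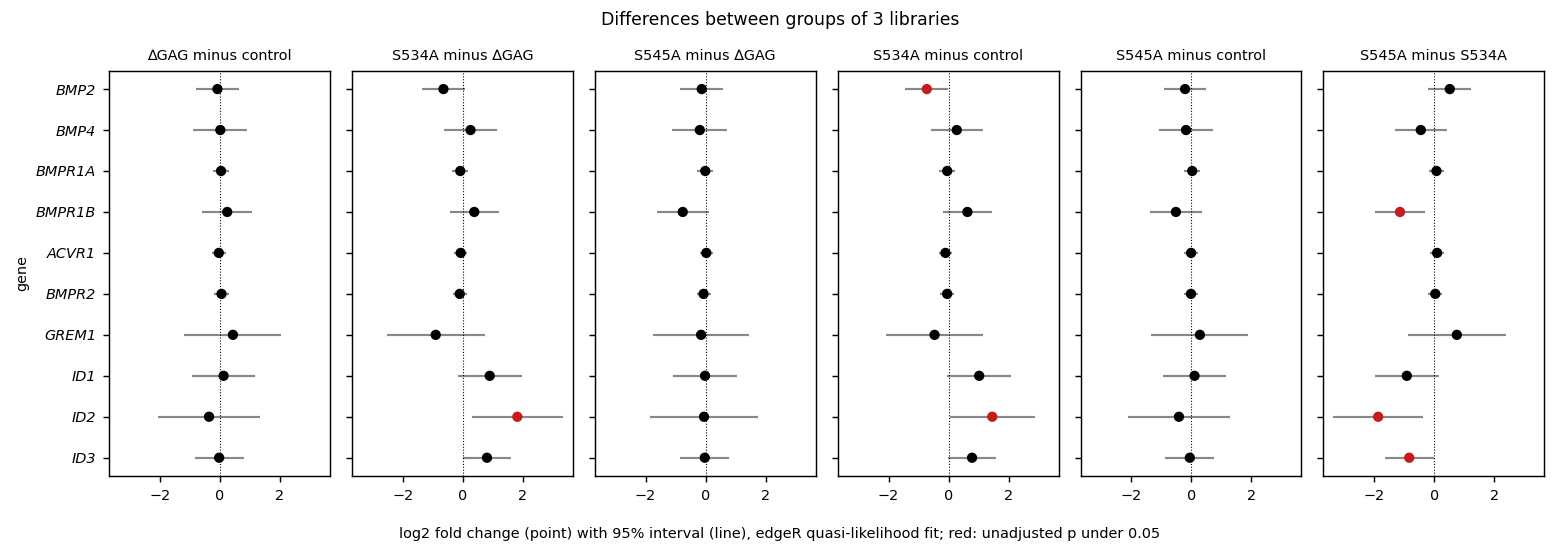
Log2 fold change of each gene in the 6 comparisons (points) with 95% intervals (lines) from the edgeR fit, and red points for an unadjusted p under 0.05. BMPR1A, ACVR1 and BMPR2 have narrow intervals around 0, and the 6 red points all belong to comparisons with S534A.

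The rest of the pathway was read from a list of 51 other genes, of which 29 had enough counts to be tested. Of 12 other ligands only BMP8B could be tested, at a mean of 0.458 CPM, GDF6 came next at 0.161 CPM, and BMP5, BMP7, BMP15 and GDF2 had no count in any library, which allows at most 0.182 CPM in the shallowest. Of 8 other receptors and co-receptors 6 were tested and 0 passed an unadjusted p of 0.05 in any comparison, and the highest were ENG, a co-receptor related to betaglycan, at 580.9 to 767.5 CPM, and RGMB at 38.4 to 44.8 CPM. All 8 SMADs and SMURF ligases were tested, the highest being SMURF2, a ubiquitin ligase, at a mean of 631 CPM, and SMAD5 at 124 CPM. SMAD7 was higher in S534A than in control vector (log2 fold change 0.96, SE 0.401, unadjusted p 0.0354, overlapping groups) and SMAD6 lower in S545A than in S534A (-1.19, SE 0.458, unadjusted p 0.0230, no overlap), with adjusted p of 0.871 and 0.702 by the edgeR test. SMAD7 was at 6.65, 21.0 and 5.22 CPM in S534A replicates 1, 2 and 3 and at 5.43, 6.41 and 5.33 CPM in control vector, and of the S534A libraries replicate 2 alone was far from the control vector range.

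Of 15 other antagonists and BMP-binding proteins 7 were tested. FSTL1, a secreted glycoprotein, was the highest at 391.6 to 804.3 CPM, and TWSG1 followed at 59.0 to 95.4 CPM. NBL1, a secreted relative of GREM1, was higher in S534A than in control vector (log2 fold change 0.66, SE 0.278, unadjusted p 0.0358) and lower in S545A than in S534A (-0.72, SE 0.279, unadjusted p 0.0243), with adjusted p of 0.871 and 0.702 by the edgeR test and overlapping groups. It was at 22.36 CPM in S534A replicate 2 and at 7.38 to 12.5 CPM in the others. Of 5 other target genes 4 were tested, with MSX1 at a mean of 35.6 CPM and HEY1 at 12.6 CPM, and of the E proteins that ID proteins bind all 3 were, with TCF3 at 130 CPM and TCF12 at 114 CPM. None of these 7 passed an unadjusted p of 0.05 in the 6 comparisons.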

How the data were processed

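Gene-level raw counts of the 12 libraries were deposited as a single table that also gives exon coordinates and lengths. Per the labels, RNA libraries were made with a directional NEBNext kit and read from both ends over 150 bases. The submitters' processing notes name FastQC, Trim Galore 0.4.5, STAR 2.4, SAMtools 1.2 and featureCounts, and mouse genome builds, whereas 33648 of the 36113 symbols shared with GENCODE release 29 have its human GRCh38 coordinates. Strand use in counting is not given in the sources used here. All 37 mitochondrial genes held 0 counts. The library titled as S545S was placed in S545A by its genotype label.

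The quasi-likelihood test of edgeR 4.0.16 (robust; R 4.3.3) was fitted to all 4 groups together, after filterByExpr at a minimum count of 10 and TMM scaling, with Benjamini-Hochberg adjustment over 16069 genes. Intervals are at 95%. A count of 0 allows up to 3 counts, or 0.100 to 0.182 CPM, and such limits cover counting error only. The tests were checked on simulated data. Alternatives were DESeq2 1.42.0, RLE factors, no filter, limma-voom (limma 3.58.1), a fit of just the 2 groups at issue, a block for replicate number, libraries 2 and 3 summed and each library left out. In S545A and control vector the same-numbered libraries deviated together (correlations of 0.597, 0.305 and 0.291). The main fit held no term for replicate number, so no main p-value is a paired one. The block was fitted over all 4 groups, as an alternative alone. It changed no count of genes called at an adjusted p of 0.05. It did move the count of the 10 genes at an unadjusted p under 0.05 in S534A minus ∆GAG and S545A minus S534A, as given below. The members and gene lists were chosen with earlier results of these data known. All 10 genes are named, with fold changes where the unadjusted p was under 0.05 or the groups did not overlap. Other pathway genes are named where the unadjusted p was under 0.05 or as the 2 with the highest mean CPM of their list, and the 3 genes most like each ID gene by Pearson's r. SMAD9, BAMBI, CHRDL1, HSPA5, MSX2, ATOH8 and the undetected ligands were named after their values were seen.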

Additional observations from a re-analysis of the deposited data

How the results depend on the processing

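No gene of the 10 passed an adjusted p of 0.05 under any alternative. The count of all genes called, 0 in edgeR, became 2, 1 and 1 in S534A minus control vector under DESeq2, without the filter and with limma-voom, 5, 1 and 1 in S534A minus ∆GAG, and 1, 1 and 1 in S545A minus S534A. The count of the 10 genes with an unadjusted p under 0.05 moved as follows. In S534A minus control vector it went from 2 to 0 without the filter, 1 with limma-voom, 0 with only the 2 groups, 0 with libraries 2 and 3 summed, and 0 to 4 over the libraries left out. With DESeq2 and with the replicate block it stayed at 2, but with BMP2 and ID3 in place of BMP2 and ID2. In S534A minus ∆GAG it went from 1 to 3 with DESeq2, 0 with limma-voom, 0 with only the 2 groups, 5 with the replicate block (BMP2, GREM1, ID1, ID2 and ID3), 0 with libraries 2 and 3 summed, and 0 to 4 over the libraries left out. In S545A minus S534A it went from 3 to 1 with limma-voom, 1 with only the 2 groups, 2 without the filter, 2 with libraries 2 and 3 summed, 4 with the replicate block, and 0 to 5 over the libraries left out. In S545A minus ∆GAG it went from 0 to 1 without the filter, 1 with only the 2 groups, and 0 to 1 over the libraries left out. Leaving out both S534A replicate 2 and ∆GAG replicate 1, chosen after seeing the data, gave 0, 0, 0 and 2 in these comparisons and 1 in ∆GAG minus control vector. The 2 are BMPR1B and ID1 and the 1 is ID1, and since ∆GAG replicate 1 was singled out for its low ID1, these counts are no test of ID1. ID2 in S534A minus control vector, 1.46 on the log2 scale, ran from -0.051 (without S534A replicate 2) to 1.84 over the libraries left out and was -0.046 without both. The cause of these shifts was not tested. In the other pairs of groups the same-numbered libraries deviated with correlations from -0.235 (S545A and S534A, replicate 2) to 0.394 (S545A and S534A, replicate 3). No label says that such libraries were paired. BMP4, BMPR1B and ID2 rest on 5 to 85 counts per library.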
